A study of Mus musculus with 8 samples.

Results

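The genes described here make cholesterol, move it through the cell and control its supply: 19 encode enzymes from acetyl-CoA to cholesterol, and 10 encode the SREBP2 control proteins, proteins of uptake, transport and esterification, and Rdh11. They were taken as a named list of 29 members and looked up by symbol among the 26682 loci of each full table. In 28 cases the symbol itself was found, and Msmo1 was found under its older symbol Sc4mol. Each member had 1 row, and Tm7sf2 shared its row with the neighbouring gene Vps51, so its values are those of both genes. All 29 members passed the authors' filter on low data in each of the 3 tables.

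Livers of 8 C57Bl/6J-background mice were sequenced, 2 for each of 4 groups: WT given vehicle, WT given IUB288, KO given vehicle and KO given IUB288. IUB288 is an agonist of the glucagon receptor. KO refers to Fxr, a nuclear receptor for bile acids whose gene is called Nr1h4 in the tables, and the design names Fxr-floxed mice. The sources used here do not name the recombinase, and so the cells that lost the gene, nor do they give age, dose, the duration of treatment, or which mouse ate high-fat diet and which chow. All mice had fasted for 2 h. The authors' deposited tables hold 1 pooled value per group, in FPKM, mapped fragments scaled to transcript length and to the size of the library, and none per mouse; pairs of levels below are vehicle first and IUB288 second. Values after ± are the standard errors of a log2 fold change that the authors' test statistics imply, and a gene is called where the authors' q-value is under 0.05. How many of the 2 mice in a group show a direction cannot be told, and neither can depth per library.

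Cholesterol is built in the cytosol and endoplasmic reticulum from acetyl-CoA, by way of HMG-CoA, mevalonate, isoprenoid diphosphates, squalene and lanosterol. The membrane-bound transcription factor SREBP2, the product of Srebf2, turns most of these genes up together. When sterols are scarce its escort SCAP carries it to the Golgi to be cut and released, and when sterols are plentiful the INSIG proteins hold it back. The liver makes cholesterol for membranes, lipoproteins and bile acids, and bile acid synthesis under the control of the farnesoid X receptor draws on that cholesterol.

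Labels and tissue were checked first. The log2 fold change of Nr1h4 between KO and WT under IUB288 was -0.54 ± 0.41 (q = 1.00) in the authors' deposited table, and since the value covers the whole gene it cannot tell whether part of it was lost. Of 8 hepatocyte markers, the 7 other than Alb lay between 121 and 8807 FPKM in the authors' deposited tables. Their sum went from 13936 to 19694 FPKM with IUB288 in WT and from 13748 to 16118 in KO, and 1 of the 7, Tat, was called higher in each genotype. Alb, the albumin gene, was listed at 0 FPKM in both vehicle groups and at 9581 (WT) and 9284 (KO) under IUB288 in the authors' deposited treatment tables, without a test, so a 0 in these tables can be a failed estimate. Summed markers of stellate cells and fibroblasts went from 123 to 63.9 FPKM with IUB288 in WT (6 of 8 called lower) and from 86.2 to 74.8 in KO (1 of 8). Summed macrophage markers went from 88.8 to 140.0 FPKM in WT (1 of 7 called higher) and from 65.7 to 55.1 in KO (none of 7). Of 6 endothelial markers 1 was called lower in WT and none in KO, and none of the 5 bile duct or 3 lymphocyte markers was called. The fat cell markers Adipoq and Plin1 stood at or near 0 in all groups, and the third, Cidec, fell in WT (log2 fold change -2.53 in the authors' deposited table). In bulk liver, fewer cells of a type and less RNA per cell cannot be told apart. What part these markers have in the results below was not tested.

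In KO liver, 9 of the 19 synthesis enzyme genes fell with IUB288, and so did Rdh11. The 9 ran from Pmvk in the mevalonate steps to Nsdhl in the steps after lanosterol. Hsd17b7, Ebp, Sc5d and Dhcr7, also of the steps after lanosterol, were not called. Of the 29 members 10 fell and none rose, 34.5% lower against 2.37% of the 13822 loci tested in the authors' deposited table (3.13% of loci rose). Among the 4631 loci of at least 10 FPKM in either group, a level that 27 of the members reach, 3.82% fell. The drops ran from 40.3% for Tm7sf2 to 68.6% for Idi1. The median log2 fold change of the 29 members was -0.72, against -0.0022 over all tested loci. Of the 29, 26 were below 0, against 50.2% of all tested loci. The 19 enzymes had a median of -0.84 and the other 10 members one of -0.41.

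**Figure D1:**
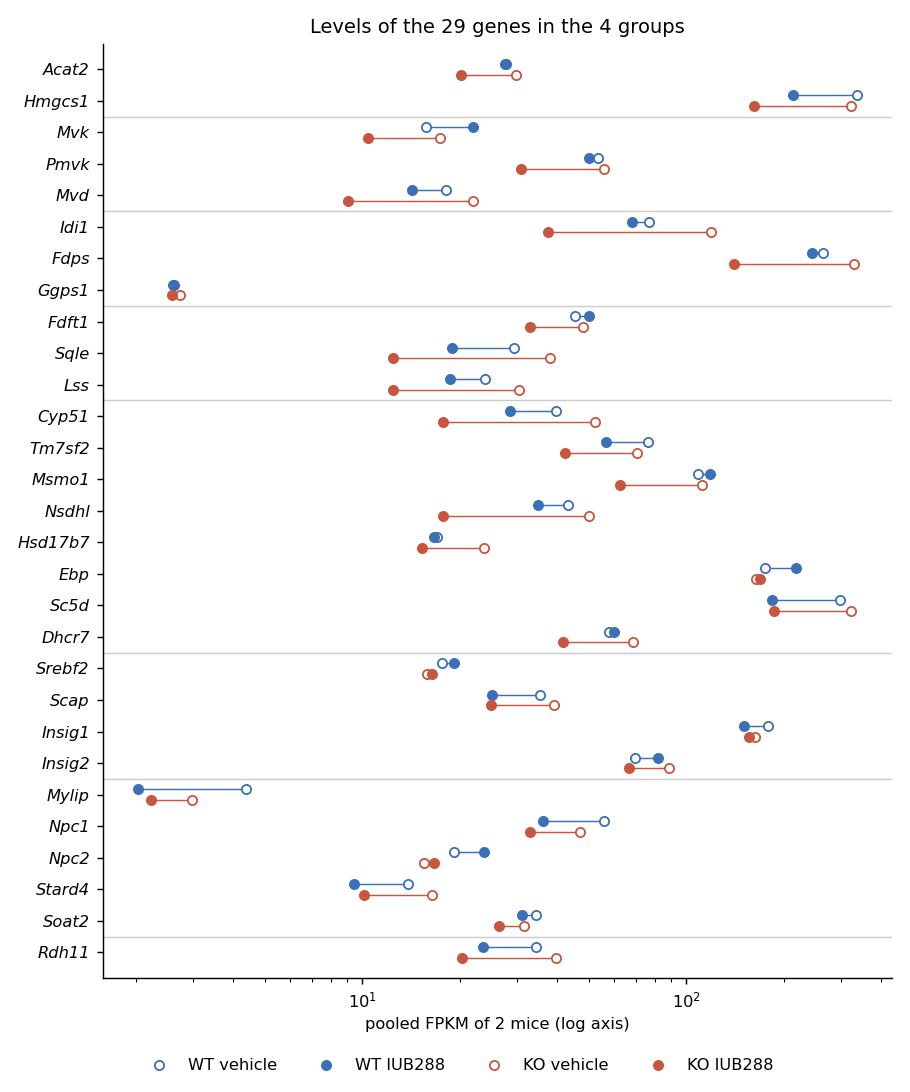
Pooled FPKM (log axis) of the 29 genes in pathway order, 1 point per group of 2 mice, open for vehicle and filled for IUB288, blue for WT and red for KO. The red lines, such as that of Idi1 from 119 to 37.4, are longer than the blue ones (76.6 to 68.2) for most enzymes.

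The first steps join acetyl-CoA units to HMG-CoA. Acat2, the cytosolic acetoacetyl-CoA thiolase, stood at 27.6 and 27.7 FPKM in WT and 29.7 and 20.1 in KO in the authors' deposited tables. Its effect in KO was -0.56 ± 0.36, q = 0.237 in the authors' deposited table, and reads of its close neighbour and paralog Acat3 may be divided between the copies. Hmgcs1, the cytosolic HMG-CoA synthase and a classical SREBP2 target, stood at 335 and 213 FPKM in WT and 321 and 162 in KO in the authors' deposited tables. It was lower with IUB288 in both genotypes, and its effect in KO (-0.99 ± 0.51, q = 0.0715 in the authors' deposited table) did not pass.

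Mevalonate is then phosphorylated, phosphorylated again and decarboxylated. For Mvk, mevalonate kinase, the values were 15.7 and 21.9 FPKM in WT and 17.3 and 10.4 in KO in the authors' deposited tables, the highest in WT under IUB288 and the lowest in KO under IUB288. Neither treatment effect passed (0.48 ± 0.44 in WT, -0.73 ± 0.39 in KO, q = 0.445 and 0.107 in the authors' deposited tables). Pmvk, phosphomevalonate kinase, fell in KO from 55.7 to 30.9 FPKM (-0.85 ± 0.36, q = 0.0233 in the authors' deposited table), while WT had 53.4 and 49.9. Mvd, the decarboxylase that yields isopentenyl diphosphate, fell from 22.0 to 9.04 FPKM (-1.28 ± 0.41, q = 0.00189 in the authors' deposited table). The WT values of Mvd were 18.2 and 14.2 FPKM, so KO under IUB288 was the lowest of the 4 groups for all 3 genes.

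The isoprenoid step held the deepest drop and one of the flattest genes. Idi1 encodes the isomerase that makes dimethylallyl diphosphate, and it fell in KO from 119 to 37.4 FPKM (-1.67 ± 0.38, q = 0.00189 in the authors' deposited table). WT, at 76.6 and 68.2 FPKM, lay between the KO groups. Fdps, which makes farnesyl diphosphate, fell from 330.0 to 140.5 FPKM in KO (-1.23 ± 0.42, q = 0.00189 in the authors' deposited table) beside 264 and 245 in WT. Ggps1, at the branch that leads to geranylgeranyl groups on proteins and away from sterols, stood at 2.62 and 2.61 FPKM in WT and 2.74 and 2.59 in KO in the authors' deposited tables. Its effects were -0.0084 ± 0.50 and -0.08 ± 0.51. Changes smaller than about 2 such errors in either direction could not be seen at this low level.

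Squalene is made, oxidised and cyclised by the next 3 enzymes. Fdft1, squalene synthase, stood at 45.2 and 50.2 FPKM in WT and 47.9 and 33.0 in KO in the authors' deposited tables, and its implied error in KO (-0.54 ± 1.37 in the authors' deposited table) was the widest of all members. Sqle, squalene epoxidase and a rate-limiting enzyme of the pathway, fell in KO from 37.9 to 12.4 FPKM (-1.61 ± 0.56, q = 0.0224 in the authors' deposited table). Sqle in WT went from 29.4 to 18.9 FPKM without passing (-0.64 ± 0.61, q = 0.495 by the authors' deposited table). Lss, which closes squalene epoxide into lanosterol, fell from 30.6 to 12.5 FPKM in KO (-1.29 ± 0.37, q = 0.00189 in the authors' deposited table), beside 23.9 and 18.7 in WT.

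From lanosterol on, 3 of 8 genes fell in KO and the other 5 did not pass. Cyp51, the cytochrome P450 that removes the lanosterol C14 methyl group, fell from 52.4 to 17.7 FPKM (-1.56 ± 0.37, q = 0.00189 in the authors' deposited table). Nsdhl, a dehydrogenase of the C4 demethylation, fell from 49.9 to 17.8 (-1.49 ± 0.37, q = 0.00189 in the authors' deposited table). Tm7sf2, a sterol C14 reductase, fell from 70.6 to 42.1 FPKM in the row it shares with Vps51 (-0.74 ± 0.36, q = 0.0485 in the authors' deposited table). The WT levels of Cyp51 were 39.7 and 28.5 FPKM, those of Nsdhl 43.0 and 34.7 and those of Tm7sf2 76.1 and 56.6 in the authors' deposited table.

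Msmo1, the C4 methyl sterol oxidase, stood at 108 and 118 FPKM in WT and 112 and 62.6 in KO in the authors' deposited tables, so that KO under IUB288 was apart from the other 3 groups. Its effect in KO did not pass (-0.84 ± 0.40, q = 0.0628 in the authors' deposited table). Dhcr7, which completes cholesterol from its last precursor, had a like pattern, 57.7 and 59.9 FPKM in WT and 68.3 and 41.6 in KO in the authors' deposited tables (KO effect -0.72 ± 0.38, q = 0.102). Hsd17b7, the C3 ketosteroid reductase, was the highest in KO under vehicle, with 16.996 and 16.7 FPKM in WT and 23.7 and 15.2 in KO in the authors' deposited tables (KO effect -0.64 ± 0.35, q = 0.134). Sc5d, the C5 desaturase and one of the most abundant members, was lower with IUB288 in both genotypes alike: 299 and 184 FPKM in WT and 323 and 187 in KO in the authors' deposited tables, without passing in either (q = 0.239 and 0.166). Ebp, the sterol isomerase, showed none of this, with 174 and 219 FPKM in WT and 164 and 169 in KO in the authors' deposited tables.

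The genes of SREBP2 control were not called in either genotype, at their RNA level. Srebf2 itself stood at 17.7 and 19.1 FPKM in WT and 15.9 and 16.5 in KO in the authors' deposited tables, with effects of 0.12 ± 0.44 and 0.053 ± 0.40. Insig1, a direct SREBP2 target as well as its retention protein, stood at 179 and 151 FPKM in WT and 163 and 156 in KO in the authors' deposited tables, with a KO effect near 0 (-0.059 ± 0.43, q = 0.967). Insig2, the other retention protein, stood at 69.3 and 81.9 FPKM in WT and 88.1 and 66.5 in KO in the authors' deposited tables, higher with IUB288 in WT and lower in KO, with neither passing (q = 0.764 and 0.520). Scap, the escort, was lower with IUB288 in both genotypes, 35.4 and 25.1 FPKM in WT and 39.0 and 25.0 in KO in the authors' deposited tables, without passing (q = 0.374 and 0.144). With errors of 0.36 to 0.44 on the log2 scale, effects smaller than about 2 such errors could not be resolved for these genes.

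Uptake, transport and esterification were called in 1 case, and that in WT. Mylip encodes a ubiquitin ligase that sends lipoprotein receptors to degradation and is known as a target of the oxysterol receptor LXR. It fell in WT with IUB288 from 4.36 to 2.04 FPKM (-1.10 ± 0.50, q = 0.0345 in the authors' deposited table). In KO it went from 2.98 to 2.23 (-0.42 ± 0.47, q = 0.653 in the authors' deposited table), and under vehicle KO was already below WT. Npc1 and Npc2 hand cholesterol out of the lysosome. Npc1 had 55.8 and 36.0 FPKM in WT and 46.9 and 33.0 in KO in the authors' deposited tables, and Npc2 19.2 and 23.7 FPKM in WT and 15.5 and 16.6 in KO, so that these partners had effects of opposite sign in both genotypes, with none passing. Stard4, a cytosolic sterol carrier and SREBP2 target, was lower with IUB288 in both genotypes, 13.8 and 9.44 FPKM in WT and 16.5 and 10.2 in KO in the authors' deposited tables (q = 0.316 and 0.141). Soat2, which esterifies cholesterol in hepatocytes, stayed within one error of 0, with 34.3 and 31.1 FPKM in WT and 31.5 and 26.4 in KO in the authors' deposited tables. Rdh11, a retinal reductase gene known to respond to SREBPs, fell in KO from 39.6 to 20.4 FPKM (-0.96 ± 0.39, q = 0.0205 in the authors' deposited table) and went from 34.3 to 23.6 in WT without passing (q = 0.361).

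In WT, then, 1 of 29 members fell and none rose, 3.45% lower against 3.4% of the 15164 loci tested in the authors' deposited table (3.96% of loci rose), a share near the background. When p was instead taken from the statistic by the normal distribution and adjusted, none was called in WT and 4 of the 29 in KO. The shares of all loci called belong to the authors' q-values, and no share is given for these counts. At an unadjusted p under 0.05 there were 2 members in WT and 19 in KO, all of them lower. Over all tested loci, in either direction, there were 2695 of 15164 in WT and 2043 of 13822 in KO. The WT median of the 29 members was -0.17, against 0.033 over all tested loci and 0.22 over loci of at least 10 FPKM in the authors' deposited table; relative to the latter it was -0.39. In WT 20 of the 29 were below 0, against 47.6% of all tested loci. For the 10 members called in KO, the WT effects lay between -0.64 and -0.098, all below 0 and none with an unadjusted p under 0.05. By step, the median effect in KO was -0.85 for the mevalonate enzymes, -1.23 for the isoprenoid enzymes, -1.29 from squalene to lanosterol and -0.77 beyond, against -0.098, -0.11, -0.36 and -0.17 in WT. It was -0.23 for SREBP2 control in KO and -0.066 in WT, and for uptake, transport and esterification -0.42 and -0.55.

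**Figure D2:**
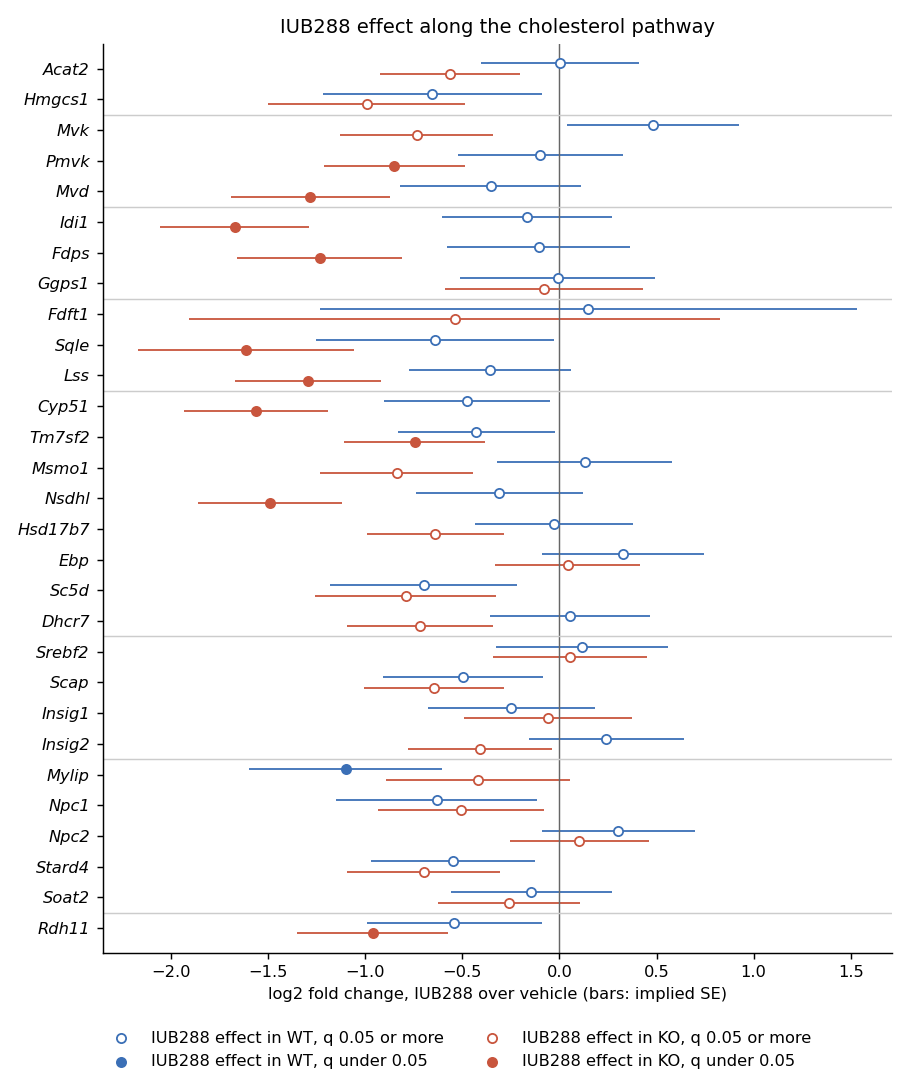
Log2 fold change of IUB288 over vehicle for the 29 genes in pathway order, blue for WT and red for KO, with bars of 1 implied standard error; filled points have a q-value under 0.05. The 10 filled red points run from -0.74 (Tm7sf2) to -1.67 (Idi1), and the single filled blue point is Mylip at -1.10.

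Promoters are shown because 10 members fell together in KO. They are RefSeq sequences (GRCm38.p6, the mm10 build) of the 250 bases before the annotated start, 5′ to 3′ on the gene's strand. Shown are the 5 enzymes with a q of 0.00189 in KO and an entry in the table. Hmgcs1, which was not called in KO, and Insig1, which was nearly level, are shown as well. Capitals mark the motifs searched on both strands: the sterol regulatory element TCACNCCAC and the CCAAT box, the site of the factor NF-Y, which acts beside SREBPs and is printed as ATTGG where it lies on the other strand. These motifs share no base in the stretches shown.

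Hmgcs1, GRCm38.p6 chr13:119690101-119690350, plus strand: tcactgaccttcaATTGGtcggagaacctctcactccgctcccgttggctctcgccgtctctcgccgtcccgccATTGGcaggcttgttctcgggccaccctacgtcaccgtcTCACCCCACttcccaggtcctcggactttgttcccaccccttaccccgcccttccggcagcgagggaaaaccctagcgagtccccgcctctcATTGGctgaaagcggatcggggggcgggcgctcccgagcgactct

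Mvd, GRCm38.p6 chr8:122443423-122443672, minus strand: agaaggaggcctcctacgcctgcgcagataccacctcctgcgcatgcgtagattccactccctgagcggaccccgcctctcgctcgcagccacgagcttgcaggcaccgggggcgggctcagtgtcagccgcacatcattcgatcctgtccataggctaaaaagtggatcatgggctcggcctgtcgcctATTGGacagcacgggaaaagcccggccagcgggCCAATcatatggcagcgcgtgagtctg

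Idi1, GRCm38.p6 chr13:8885356-8885605, plus strand: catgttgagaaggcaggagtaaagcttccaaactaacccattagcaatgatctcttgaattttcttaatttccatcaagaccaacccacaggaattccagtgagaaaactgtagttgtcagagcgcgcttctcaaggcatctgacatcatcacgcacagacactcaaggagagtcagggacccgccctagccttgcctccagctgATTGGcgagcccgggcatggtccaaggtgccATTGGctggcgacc

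Lss, GRCm38.p6 chr10:76531355-76531604, plus strand: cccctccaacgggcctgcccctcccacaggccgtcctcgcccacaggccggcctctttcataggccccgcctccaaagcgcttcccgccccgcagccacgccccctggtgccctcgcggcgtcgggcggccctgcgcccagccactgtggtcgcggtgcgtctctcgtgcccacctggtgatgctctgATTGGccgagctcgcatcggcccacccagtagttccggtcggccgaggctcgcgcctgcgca

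Cyp51, GRCm38.p6 chr5:4104698-4104947, minus strand: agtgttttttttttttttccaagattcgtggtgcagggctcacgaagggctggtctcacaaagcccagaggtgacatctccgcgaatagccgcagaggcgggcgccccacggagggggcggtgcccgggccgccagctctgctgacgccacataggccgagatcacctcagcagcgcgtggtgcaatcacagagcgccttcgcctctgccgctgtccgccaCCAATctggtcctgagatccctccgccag

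Nsdhl, GRCm38.p6 chrX:72918271-72918520, plus strand: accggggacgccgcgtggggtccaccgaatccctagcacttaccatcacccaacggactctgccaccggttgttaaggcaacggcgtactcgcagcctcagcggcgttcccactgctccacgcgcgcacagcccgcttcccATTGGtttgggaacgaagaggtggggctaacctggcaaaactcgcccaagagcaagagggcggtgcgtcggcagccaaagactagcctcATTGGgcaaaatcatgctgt

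Insig1, GRCm38.p6 chr5:28071162-28071411, plus strand: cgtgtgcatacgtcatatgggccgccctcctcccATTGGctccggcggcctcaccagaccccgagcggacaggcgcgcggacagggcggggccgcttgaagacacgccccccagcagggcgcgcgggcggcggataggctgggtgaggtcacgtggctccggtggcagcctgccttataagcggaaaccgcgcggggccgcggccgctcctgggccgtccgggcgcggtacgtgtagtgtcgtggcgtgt

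A promoter entry, from 250 bases before to 50 after a start, was found for 23 of the 29 members, with 30 starts in all. Those without an entry were Fdps, Fdft1, Sqle, Npc1, Stard4 and Soat2. A CCAAT box lay in the promoters of 21 of these 23 genes (91.3%), against 41.1% of the 27025 genes in the RefSeq table. Among protein-coding genes of at least 10 FPKM in WT liver it lay in 45.6% of 3564. Counting only genes with 1 annotated start, it lay in 17 of 18 members and in 38.2% of all such genes. Of the 47 matches 27 lay within 100 bases before the start, and positions in the promoters of other genes were not counted. The only matches of Pmvk, Dhcr7 and Rdh11 were at starts -4577, 7047 and 1140 bases from the edge of the measured locus. For Tm7sf2, in its shared row, this distance was 9337. Counted from the start, the matches of Idi1 begin at -45 and -14, those of Mvd at -60 and -27, that of Lss at -62 and that of Cyp51 at -29. Members with flat RNA had matches as well: Insig1 had 1, at -216, and Ggps1 and Ebp had 3 and 2. The sterol regulatory element as spelled above lay in 1 of the 23 genes, Hmgcs1, at -137, and in 1.44% of all genes. Hmgcs1 was not called in KO, and none of the members called there that had an entry held the element. No match says only that these letters are not in this window. A match is a description of the sequence and not a site shown to be bound in these livers.

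**Figure D3:**
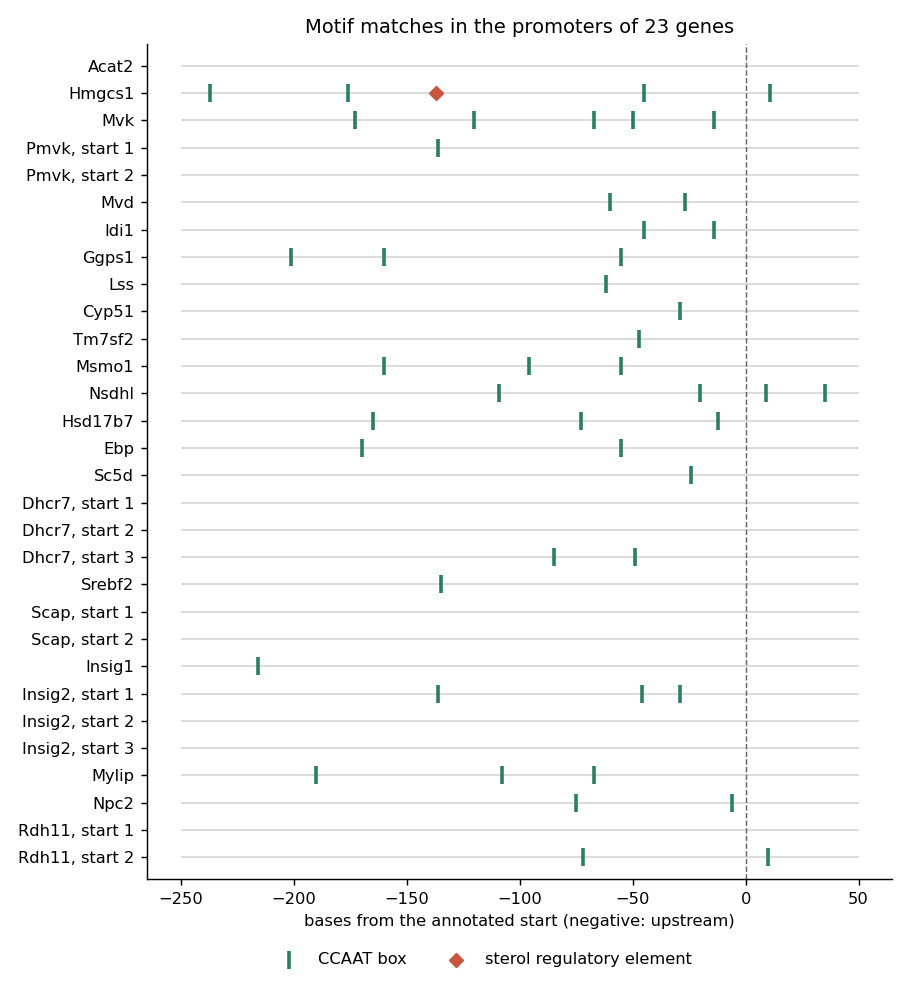
Matches to the CCAAT box (green bars) and the sterol regulatory element (red diamond) in the promoters of 23 genes, by the distance in bases of the first base of each match from the annotated start. Of 47 CCAAT matches 27 lie within 100 bases before the start, and the single diamond is in Hmgcs1.

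Whether the effect of IUB288 differed between KO and WT was tested as the difference of the log2 fold changes. No member passed after Benjamini-Hochberg adjustment over the 13521 loci tested in both genotypes, where 0.104% of loci passed. At an unadjusted p under 0.05 there were 3 of the 29 members, Idi1, Mvk and Nsdhl, and 1.08% of all loci. With the narrower errors that the p-values imply there were 8 of the 29, and again none passed after adjustment (smallest adjusted p 0.566). The 1.08% of all loci belongs to the wider errors and is no background for these 8, for which no share of all loci is given. The difference, KO minus WT, was -1.50 (95% interval -2.65 to -0.36) for Idi1, -1.22 (95% interval -2.38 to -0.053) for Mvk and -1.18 (95% interval -2.29 to -0.069) for Nsdhl. Cyp51 had -1.09 (95% interval -2.20 to 0.023), and Fdps had -1.13 (95% interval -2.37 to 0.12). The adjusted p of each of the 29 was 1.00, from a normal test with the implied errors, so that a fall called in KO and not in WT is not shown to differ between them. Over the 29 members 26 differences were below 0, with a median of -0.57, against 55.4% of all loci and a median of -0.042. The 3 above 0 were Mylip with 0.68 (95% interval -0.66 to 2.02), Insig1 with 0.19 (95% interval -1.004 to 1.38) and Npc1 with 0.12 (95% interval -1.19 to 1.44).

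**Figure D4:**
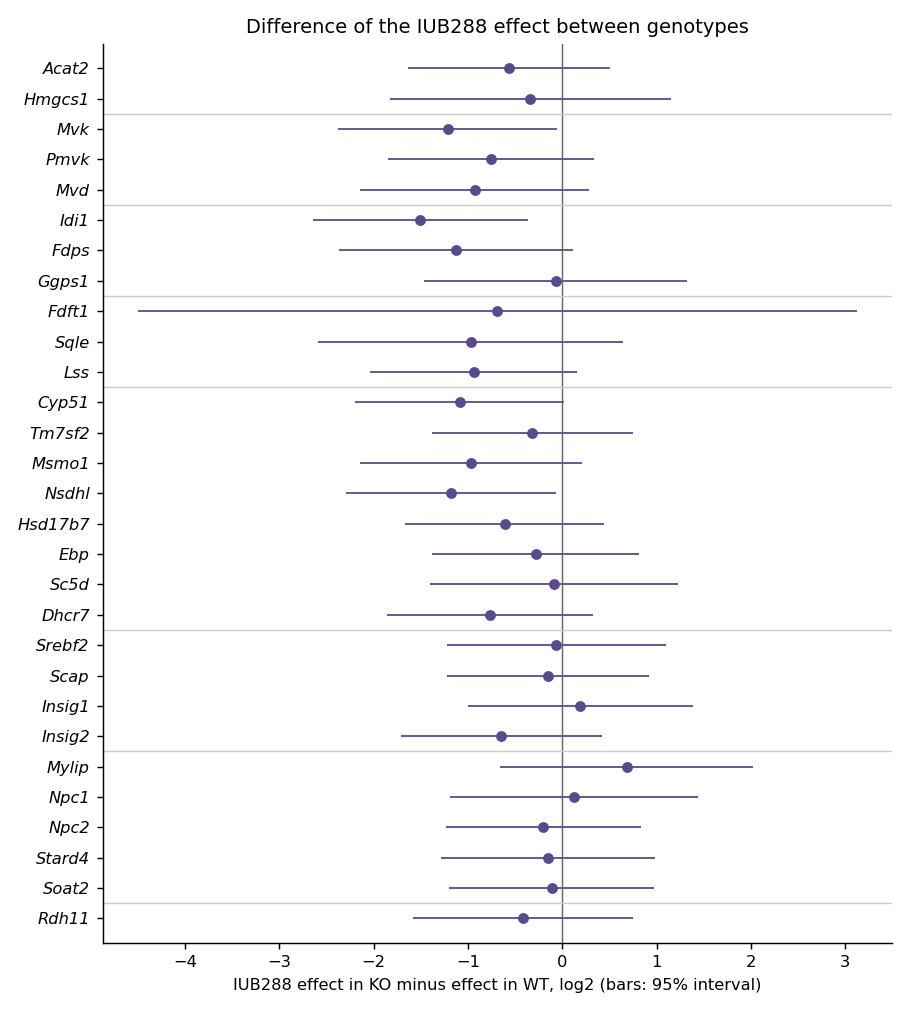
Effect of IUB288 in KO minus its effect in WT, on the log2 scale, for the 29 genes in pathway order; bars are 95% intervals from the implied errors. Points lie to the left of 0 for 26 genes, and the intervals of Idi1, Mvk and Nsdhl do not reach 0, before adjustment.

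The KO and WT mice given IUB288 were compared in a table of their own. None of the 29 members was called, where 0.216% of the 13918 tested loci were lower in KO and 0.323% higher in the authors' deposited table. At an unadjusted p under 0.05 there were 7 members, all lower in KO, and 573 of all loci, and normal p-values from the statistic also called none. The median of the members was -0.39, with 23 of 29 below 0, against -0.015 and 52.2% for all tested loci. Mvk, at 20.3 FPKM in WT and 9.91 in KO, had the lowest value (-1.04 ± 0.46, q = 0.121 in the authors' deposited table). Nsdhl had -0.93 ± 0.46, q = 0.443, Msmo1 -0.88 ± 0.49, q = 0.655 and Idi1 -0.83 ± 0.45, q = 0.490 in the authors' deposited table. In the same comparison 3 of 7 macrophage markers were called lower in KO, and their summed level was 129.9 FPKM in WT and 52.3 in KO in the authors' deposited table. Whether the members' values move with that was not tested.

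Under vehicle no table sets KO against WT, so the levels come from tables scaled apart and carry no test. With the FPKM values rescaled by the IUB288 groups that the tables share, a log2 shift of 0.033, 20 of 29 members were higher in KO than in WT. Without rescaling the count was also 20, against 50.1% of 13546 loci. The rescaled median log2 ratio of the 29 members was 0.15, against 0.032 over the 13224 loci tested in all 3 tables. Idi1 stood highest above WT, 119 against 76.6 FPKM as deposited, followed by Hsd17b7 (23.7 against 16.996) and Cyp51 (52.4 against 39.7) in the authors' deposited tables. Mylip lay farthest below (2.98 against 4.36 FPKM). By the sign of the log2 ratio alone, the order of the genotypes turned over between vehicle and IUB288 for most members. Of the 29, 16 (55.2%) were higher in KO under vehicle and lower in KO under IUB288, against 21.8% of the 13224 loci. The rescaled vehicle log2 ratios of these 16 ran from 0.080 (Msmo1) to 0.67 (Idi1), without a test. None of the 29 was called between KO and WT under IUB288. The KO vehicle level enters the IUB288 effect in KO as well, so its height over WT and the falls in KO are not independent.

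**Figure D5:**
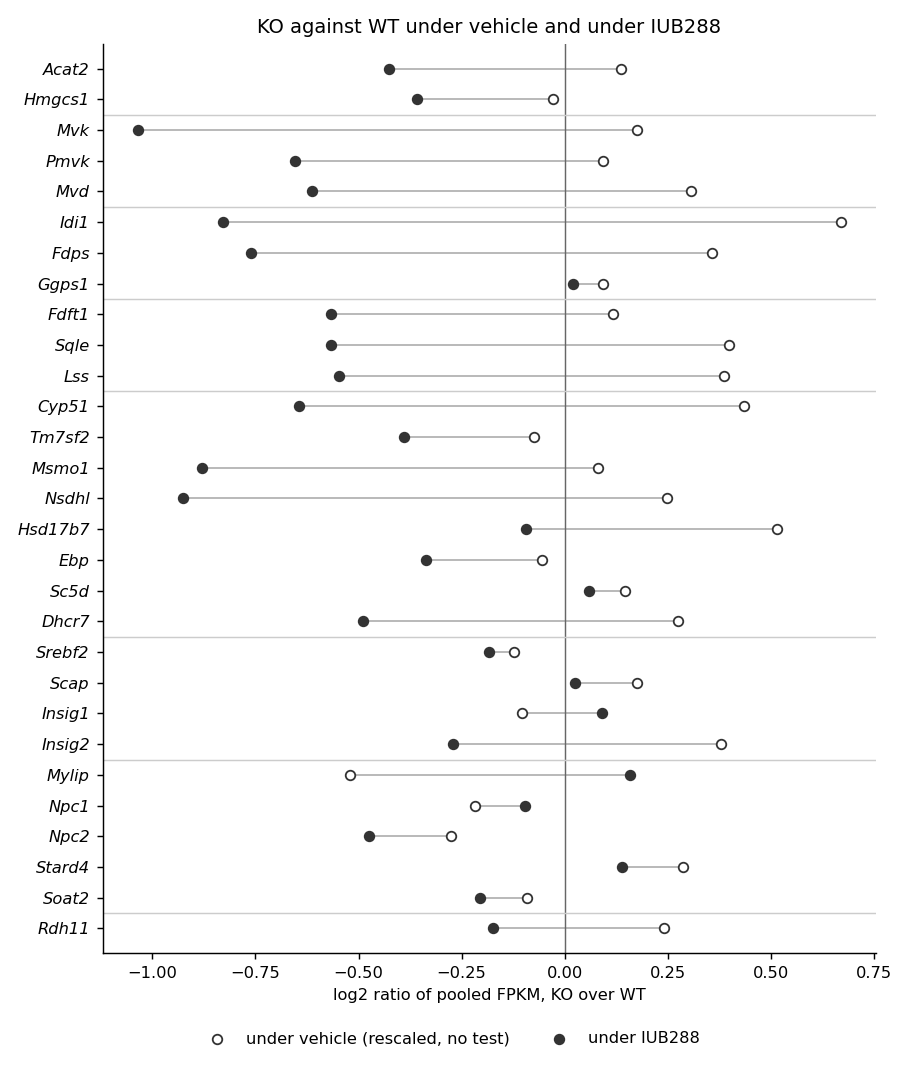
Log2 ratio of pooled FPKM, KO over WT, for the 29 genes in pathway order, open points under vehicle (rescaled, with no test) and filled points under IUB288. For 16 genes the open point is right of 0 and the filled point left of it, as for Idi1 (0.67 and -0.83).

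Genes next to the pathway were read from 4 further lists. The background for their counts is the share of all tested loci called in the authors' deposited tables. In KO 2.37% of loci fell and 3.13% rose, with a median of -0.0022 over all tested loci. In WT 3.4% fell and 3.96% rose, with a median of 0.033. Of 24 other genes tied to SREBP2, the sterol branch or isoprenoids, 4 fell in KO and none rose, with a median of -0.025. They were Fabp5 (-2.90 ± 0.52, q = 0.00189), a fatty acid binding protein, Aacs (-1.72 ± 0.41, q = 0.00189), which makes acetoacetyl-CoA in the cytosol from ketone bodies, and Erg28, listed under its older symbol 0610007P14Rik (-0.93 ± 0.36, q = 0.00346), a scaffold of the C4 demethylation enzymes, in the authors' deposited table. The fourth, outside the rule for naming and named after its values were seen, was Mmab (-0.82 ± 0.37, q = 0.0404 in the authors' deposited table), an enzyme of vitamin B12 metabolism whose gene stands beside Mvk. In WT 2 of the 24 fell, Fabp5 (-2.40 ± 0.59, q = 0.00163) and Aacs (-2.11 ± 0.44, q = 0.00163) in the authors' deposited table.

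SREBP processing genes, 19 tested, held 1 call, Sec24d, a coat protein of vesicles that leave the endoplasmic reticulum, which fell in WT (-0.98 ± 0.40, q = 0.0148 in the authors' deposited table). Of 18 tested LXR and oxysterol genes 2 rose and 2 fell in KO, and 1 rose and 1 fell in WT. In KO the sterol hydroxylase gene Cyp39a1 rose (1.42 ± 0.42, q = 0.00189), as did the sterol export gene Abcg5 (1.00 ± 0.41, q = 0.0205), and Nceh1, a cholesteryl ester hydrolase, fell (-0.97 ± 0.38, q = 0.00989) in the authors' deposited table. The other one that fell, named after its values were seen, was the sterol hydroxylase gene Cyp27a1 (-0.88 ± 0.37, q = 0.0154 in the authors' deposited table). The oxysterol hydroxylase gene Cyp7b1 rose in WT from 29.5 to 105 FPKM (1.83 ± 0.46, q = 0.00163) and the sterol carrier gene Stard5 fell (-0.90 ± 0.39, q = 0.0139) in the authors' deposited table. Of 17 lipogenic targets of SREBP1, the sister factor that drives fatty acid synthesis, 6 fell in each genotype and none rose. Their medians were -0.90 in WT and -0.66 in KO. None of the 17 passed the test of the difference between genotypes, and gene by gene the median difference, KO minus WT, was -0.051. The largest falls were Thrsp (-2.86 ± 0.45, q = 0.00163), Pnpla3 (-2.60 ± 0.75, q = 0.00163) and Scd1 (-2.16 ± 0.70, q = 0.00301) in WT, and Pnpla3 (-3.28 ± 0.59, q = 0.00189), Thrsp (-2.91 ± 0.40, q = 0.00189) and Acss2 (-1.83 ± 0.38, q = 0.00189) in KO, in the authors' deposited tables.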

How the data were processed

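Total RNA from liver was made into libraries by TruSeq RNA chemistry, per the labels' protocols; use of strand is not stated there. The submitters' processing notes list Cuffdiff, Cufflinks 2.2.1, Bowtie2 2.2.3, TopHat2 2.0.12 and Trim Galore 0.4.0, without roles or order. The notes name hg19 and mm10, and the coordinates match mm10. The authors deposited, per comparison, pooled FPKM values, log2 fold changes, test statistics (a score with no fixed range), p-values and q-values; q-values follow from p-values by Benjamini-Hochberg adjustment over tested loci, to within 0.000124. The smallest p-value is 5e-05.

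Implied standard errors are fold change over statistic. For members in KO above the smallest p-value they were 1.42 times (median) as large as those the p-values imply. The difference KO minus WT was tested with them. The calculation was first run on simulated data with known answers. Those data were drawn with the same implied errors, so that run cannot show whether the errors have the right size. Shared IUB288 groups were 1.05 (KO) and 1.08 (WT) times as high in treatment tables as in the genotype table. Named genes were all 29 members and, of each further list, up to 3 called genes per comparison by size. Members, lists, tests and alternatives were chosen with earlier results of these data known, and those added after the tables were read are named in the closing section. Per-sample columns left unmapped numbered 0. The software was scipy 1.17.1 and pandas 2.3.3 under Python 3.11.15.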

Additional observations from a re-analysis of the deposited data

How the results depend on the processing

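The 10 members called in KO became 6 at a q under 0.01. They became 4 when p was taken from the statistic by the normal distribution (Idi1, Lss, Cyp51 and Nsdhl). The 1 called in WT became 0 under each of these. Shares of all loci called are not given for either setting. An FPKM minimum of 1, centred fold changes and a pseudocount of 1 kept the direction of each called member. Leaving out Msmo1, the shared row of Tm7sf2 and Vps51, or Fdft1, alternatives added after seeing the data, left 9 or 10 calls in KO; centring on loci of at least 10 FPKM, also added then, gave medians of -0.39 in WT and -0.80 in KO. The difference between genotypes called no member under any alternative. With errors implied by the p-values 8 members had an unadjusted p under 0.05, and the smallest adjusted p was 0.566. No share of all loci is given beside those 8. Under vehicle, 20 members were higher in KO with and without rescaling. No symbol had a second row, so that alternative gave no value. No paired analysis was possible because the tables give no value per mouse, and leaving out single mice was not run for the same reason. Differences of diet between mice, if there were any, cannot be told apart from the groups.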
